A study of Homo sapiens with 12 samples.

Results

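The 49 genes described here encode the machinery that copies DNA, and they were chosen by name from a list of origin licensing factors, helicase subunits, polymerases, clamp proteins, enzymes of deoxynucleotide supply and chromatin assembly factors. All 49 were found among the 36601 genes listed and passed the minimum mean of 10 normalized counts over the 12 libraries, as did 15376 genes in all. RNA came from KP4, a human pancreatic ductal carcinoma line that the labels give as wild type in genotype, and the 4 treatments lasted 24 h each. Cells received DMSO alone (the vehicle), 10 mM metformin (Met), an inhibitor of mitochondrial complex I, 5 nM FK866 (FK), which blocks NAMPT in the salvage route to NAD, or the 2 drugs together (Met+FK). Each treatment has 3 libraries, numbered 1 to 3. The labels do not say that these came from separate cultures, so the p-values measure only the spread between libraries, which may be technical. The study asked how FK866 and metformin act together on pancreatic cancer cells, and the comparisons below ask how the replication genes stood under each drug and under both.

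DNA replication starts in G1 phase, when the origin recognition complex, CDC6 and CDT1 load the MCM2-7 helicase onto origins, a step called licensing. At the onset of S phase, CDC45 and the GINS complex turn the loaded helicase into an active one. Polymerase alpha with primase, polymerase delta and polymerase epsilon then copy the strands together with the sliding clamp PCNA. Most of these genes are targets of the E2F transcription factors and are transcribed mainly around the G1 to S transition, so dividing cancer cells hold much of their RNA. In bulk RNA, fewer cells in S phase and less RNA per cell cannot be told apart.

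The libraries held between 30667735 and 41052203 counted read pairs, and their size factors lay between 0.867 and 1.21. Of 8 epithelial and ductal markers, KRT8, KRT18 and SOX9 had at least 2217 normalized counts in every library, whereas EPCAM stayed at or under 12.5 and KRT19 at or under 75.0. Of 9 markers of other cell types, DCN and INS were at 0 in all libraries and CD3E reached at most 1.02, but CD68 lay between 720.9 and 1010 and PTPRC between 101.4 and 304. The summed level of these 9 markers was 1170.3 to 1299 normalized counts in the DMSO libraries, 931 to 989 in Met, 992 to 1075 in FK and 978.5 to 1011 in Met+FK. The summed level of the 8 epithelial and ductal markers, mostly KRT18, was 25327 to 26266 normalized counts in DMSO, 16512 to 19694 in Met, 19378 to 22878 in FK and 16238 to 19672 in Met+FK. Of the 7 of these that were tested, KRT8, KRT18 and KRT19 were lower with metformin (-0.29, -0.82 and -1.26), SOX9 and CDH1 were higher (0.24 and 1.07), and KRT7 and MUC1 did not pass (-0.26 and 0.27). The part of these markers in the results was not tested. Values are normalized counts, that is, read pairs per gene divided by the size factor of the library. Changes are given as log2 fold changes of normalized count + 1, fitted with limma-trend over all 15376 genes. A gene passed at an adjusted p under 0.05 (Benjamini-Hochberg), and a differentially expressed gene (DEG) also had a fold change over 1.5, the thresholds of the study.

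Promoter sequences were examined because E2F proteins bind short GC-rich sites close to the start of many replication genes. RefSeq windows of 300 bases (250 before and 50 after a start, GRCh38.p14) were found for 42 of the 49 genes. RPA2, MCM5, DNA2, MCM4, POLD3, GINS4 and RPA3 had no window in the table. The windows were searched on both strands for 4 forms of an E2F-type core, TTTCCCGC, TTTCGCGC, TTTGCCGC and TTTGGCGC, of which a form can overlap the reverse complement of another. Of the 42 genes, 20 (47.6%) held at least 1 match in a window, against 6.53% of the 10829 tested genes with a window. Counted by window, a match was in 38.9% of the 54 windows of the replication genes and in 4.78% of the 15806 windows of all tested genes. The letters CCAAT, searched on both strands in the same windows, were in 61.1% of the windows of the replication genes and in 34.5% of those of all tested genes. A match is a run of letters and not a measured binding site. By the deposited gene positions, the stretches shown for MCM7, GINS2, LIG1 and UHRF1 lie inside the gene, and that for POLA2 does in part. They are upstream of a RefSeq start, which can differ from the outermost start of the gene. The stretches below show a match for genes of different steps, 5′ to 3′ on the gene's own strand and upstream of a RefSeq start, with the match in capitals.
MCM7 (chr7:100101551-100101610, minus strand): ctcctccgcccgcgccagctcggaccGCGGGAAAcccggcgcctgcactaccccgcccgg
GINS2 (chr16:85688955-85689011, minus strand): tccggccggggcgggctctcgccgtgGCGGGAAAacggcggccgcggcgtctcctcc
POLA2 (chr11:65261883-65261942, plus strand): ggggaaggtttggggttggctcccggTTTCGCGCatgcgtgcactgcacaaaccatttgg
PCNA (chr20:5126648-5126707, minus strand): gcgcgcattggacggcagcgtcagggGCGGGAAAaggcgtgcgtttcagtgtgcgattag
LIG1 (chr19:48170425-48170484, minus strand): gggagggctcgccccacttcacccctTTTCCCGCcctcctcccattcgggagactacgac
TYMS (chr18:657588-657647, plus strand): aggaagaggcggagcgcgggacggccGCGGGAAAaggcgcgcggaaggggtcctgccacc
UHRF1 (chr19:4909461-4909500, plus strand): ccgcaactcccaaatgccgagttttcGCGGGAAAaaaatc

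MCM7, GINS2, POLA2, PCNA, LIG1, TYMS and UHRF1 are taken up again with their values. RRM2, which had the largest decrease with metformin of the 49 genes, and RFC1, the only one with a positive log2 fold change, had no match in their windows. The median log2 fold change of Met against DMSO was -1.12 for the 20 genes with a match (range -1.46 to -0.58) and -0.77 for the 22 without (range -1.71 to 0.15). This is a description of overlapping ranges, without a test.

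Metformin lowered the replication genes as a group. Against DMSO, 46 of 49 were lower at an adjusted p under 0.05, compared with 25.9% of all tested genes. None of the 49 was higher, also at an unadjusted p under 0.05 and with edgeR and DESeq2, compared with 24.9% of all tested genes. A fold change over 1.5 was also passed by 40 of the 46, against 10.2% of all tested genes, and 24 were at least 2-fold lower, against 3.06%. The median log2 fold change of the 49 was -0.98, or a decrease in the typical gene to 0.506 of its DMSO level, while the median over all tested genes was 0.01. In 46 genes every Met library was below every DMSO library, against 29.4% of all tested genes. All 46 calls held in each of the 6 fits that left out 1 library. The 3 genes that did not pass were ORC2 (log2 fold change -0.14), WDHD1 (-0.24) and RFC1 (0.15). The share of all normalized counts that fell on the 49 genes was 72.2 to 73.2 per 10000 in the DMSO libraries, 37.6 to 39.0 in Met, 63.7 to 70.1 in FK and 32.7 to 35.1 in Met+FK, so the groups with and without metformin did not overlap.

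**Figure D1:**
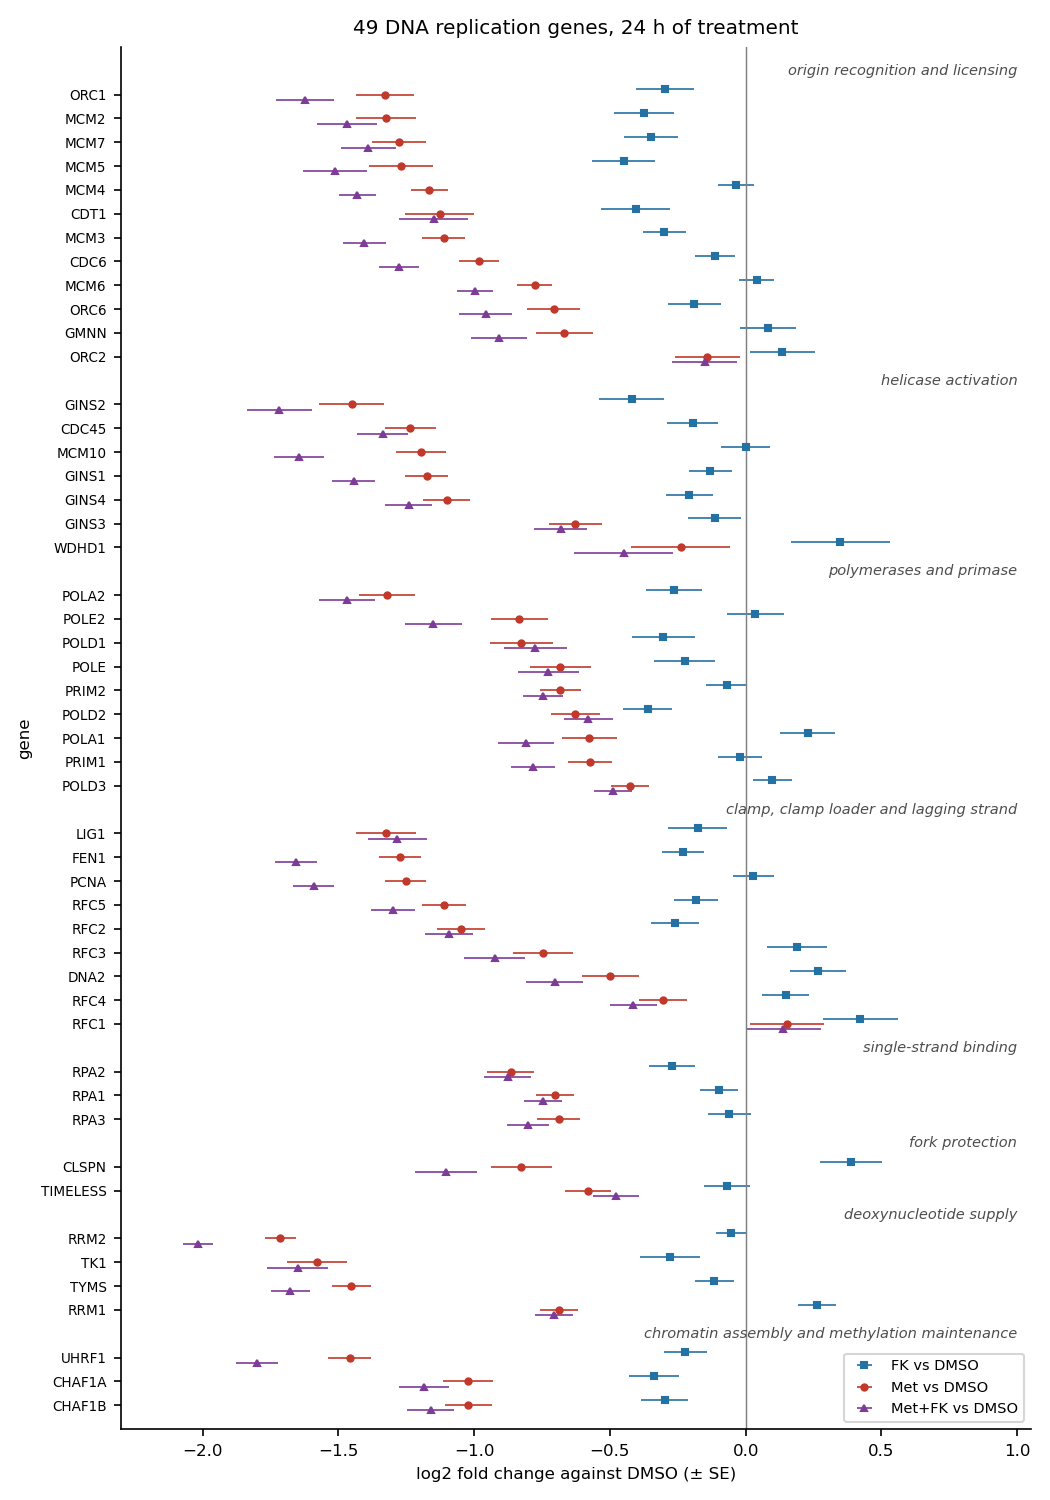
Log2 fold change against DMSO (horizontal axis, with the SE of the fit as bars) of the 49 replication genes, ordered within 8 role groups, for Met (circles), FK (squares) and Met+FK (triangles). Met values run from -1.71 to 0.15 and Met+FK values from -2.02 to 0.14, while FK values lie between -0.45 and 0.42.

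Of the 12 genes of origin recognition and licensing, 11 fell with metformin, all of them over 1.5-fold, with a group median of -1.12. ORC1, the largest subunit of the origin recognition complex (ENSG00000085840, chr1:52372828-52404423, minus strand, hg38), had 2691, 2395 and 2503 normalized counts in the DMSO libraries, 957, 951 and 1119 in the Met libraries, 2377, 1798 and 2036 in the FK libraries and 791, 778 and 895 in the Met+FK libraries. Its log2 fold change with metformin was -1.33 ± 0.11 (SE), adjusted p = 1.98e-07. The levels with metformin were below all levels without it, and the Met+FK libraries lay below the Met libraries. MCM2, a subunit of the replicative helicase (ENSG00000073111, chr3:127598409-127622436, plus strand), had 13453, 11602 and 12006 normalized counts in the DMSO libraries, 4756, 4710.3 and 5330.5 in the Met libraries, 11034, 8093 and 9646 in the FK libraries and 4452, 3965 and 5023 in the Met+FK libraries. Its change with metformin was -1.32 ± 0.11 (SE), adjusted p = 3.15e-07, and the Met and Met+FK libraries overlapped. The other helicase subunits stood at -1.28 for MCM7, -1.27 for MCM5, -1.17 for MCM4, -1.11 for MCM3 and -0.78 for MCM6. MCM6 therefore fell least of the 6 subunits, which form 1 ring, and its canonical transcript had the lowest GC content of them (43.2%). The part of GC content in this order was not tested. CDC6, the loading ATPase, stood at -0.98 and ORC6 at -0.71. ORC2, another subunit of the origin recognition complex (ENSG00000115942, chr2:200908976-200963680, minus strand), had 1694, 2315 and 2193 normalized counts in the DMSO libraries, 1797, 2055 and 1737 in the Met libraries, 1952, 2574 and 2269 in the FK libraries and 1797, 1906 and 1836 in the Met+FK libraries. These groups overlapped, and the change of -0.14 ± 0.12 (SE), adjusted p = 0.34 did not pass.

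CDT1 loads the helicase, and geminin, the product of GMNN, binds and blocks it. CDT1 (ENSG00000167513, chr16:88803788-88809258, plus strand) had 2570.1, 2463 and 2491 normalized counts in the DMSO libraries, 1078, 1064 and 1318 in the Met libraries, 2130.3, 1581 and 2015 in the FK libraries and 1112, 976 and 1329 in the Met+FK libraries. GMNN (ENSG00000112312, chr6:24774930-24786099, plus strand) had 1506, 1629 and 1367 normalized counts in the DMSO libraries, 969, 1023 and 842 in the Met libraries, 1558, 1796 and 1419 in the FK libraries and 767, 786 and 840.0 in the Met+FK libraries. Both fell with metformin, CDT1 with a log2 fold change of -1.13 ± 0.13 (SE), adjusted p = 5.81e-06, and GMNN with one of -0.67 ± 0.10 (SE), adjusted p = 0.000105. With metformin, no library of either gene reached the level of a library without it.

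**Figure D2:**
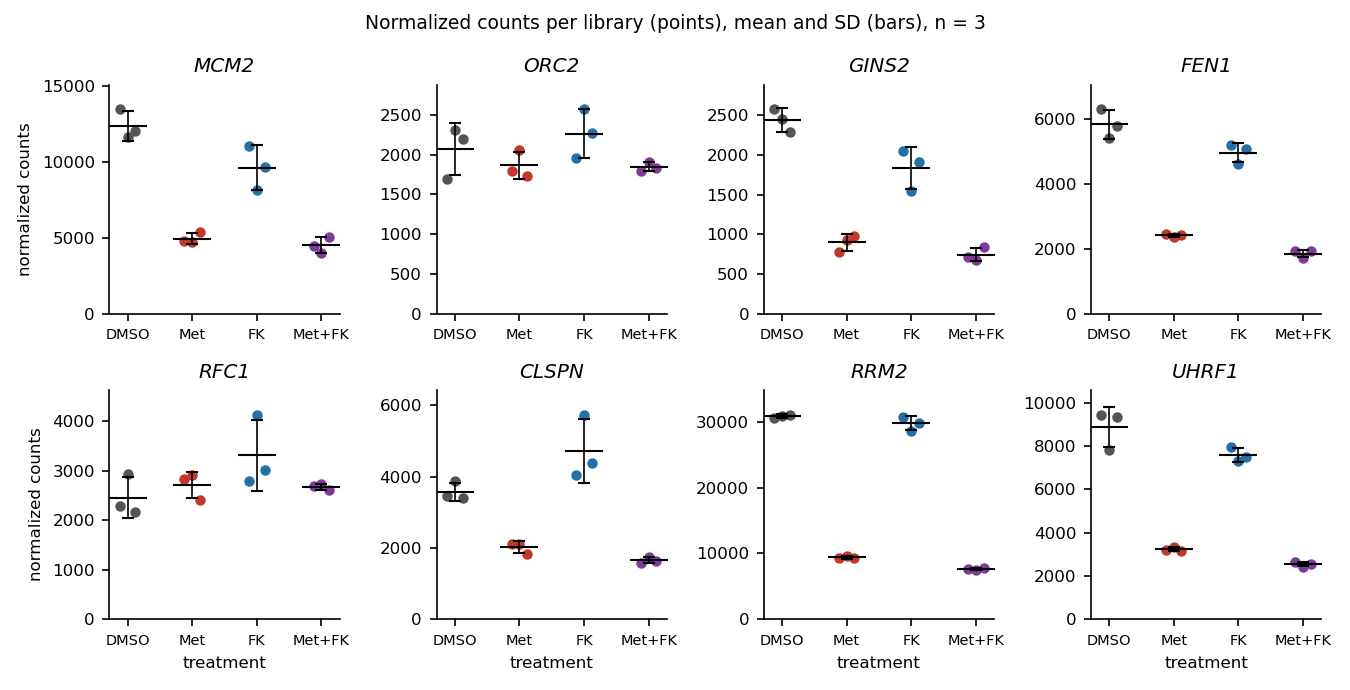
Normalized counts (vertical axes, from 0) of 8 replication genes in each library (points), by treatment, with the mean and SD of 3 libraries (bars). Levels of MCM2, GINS2, FEN1, RRM2 and UHRF1 are lower in every library with metformin than in every library without it, as are those of CLSPN, whereas those of ORC2 and RFC1 overlap between DMSO and Met.

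In the helicase activation group, 6 of 7 genes fell with metformin, all over 1.5-fold, with a median of -1.17. GINS2, a subunit of the GINS complex that joins the helicase (ENSG00000131153, chr16:85676197-85690073, minus strand), had 2582, 2460.2 and 2286 normalized counts in the DMSO libraries, 773, 934 and 983 in the Met libraries, 2046, 1543 and 1918 in the FK libraries and 711, 680.4 and 842 in the Met+FK libraries. Its change with metformin was -1.45 ± 0.12 (SE), adjusted p = 2.92e-07, and its levels in the DMSO and FK libraries did not overlap either. CDC45, which joins the helicase with GINS (ENSG00000093009, chr22:19479456-19520612, plus strand), had 2690.1, 2433 and 2615 normalized counts in the DMSO libraries, 1017, 1054 and 1222 in the Met libraries, 2427, 2074 and 2262 in the FK libraries and 1006, 954 and 1103 in the Met+FK libraries. It changed by -1.23 ± 0.09 (SE), adjusted p = 1.27e-07, and its Met and Met+FK libraries overlapped. The other members that fell were MCM10 (-1.20), GINS1 (-1.17), GINS4 (-1.10) and GINS3 (-0.63). WDHD1, the adaptor between the helicase and polymerase alpha (ENSG00000198554, chr14:54938948-55027105, minus strand), had 1125, 1737 and 1137 normalized counts in the DMSO libraries, 1098, 1254 and 981 in the Met libraries, 1368, 2253 and 1490.0 in the FK libraries and 867, 1012 and 994 in the Met+FK libraries. Replicate 2 was the highest library in each of the 4 treatments, the groups overlapped between DMSO and Met, and the change of -0.24 ± 0.18 (SE), adjusted p = 0.288 did not pass.

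All 9 polymerase and primase genes fell with metformin, 6 of them over 1.5-fold, and their median of -0.68 was closer to 0 than that of the licensing genes. POLA2, the accessory subunit of polymerase alpha (ENSG00000014138, chr11:65261919-65305589, plus strand), had 4834, 4362 and 4715 normalized counts in the DMSO libraries, 1738, 1734 and 2115 in the Met libraries, 4215, 3388 and 4018 in the FK libraries and 1675, 1518 and 1845 in the Met+FK libraries. Its change with metformin was -1.32 ± 0.10 (SE), adjusted p = 1.88e-07. POLE2, a subunit of the leading strand polymerase epsilon (ENSG00000100479, chr14:49643554-49688422, minus strand), had 695, 826 and 733 normalized counts in the DMSO libraries, 402, 455 and 405 in the Met libraries, 818, 829 and 668 in the FK libraries and 330.3, 340.2 and 340.5 in the Met+FK libraries. It changed by -0.83 ± 0.10 (SE), adjusted p = 1.55e-05, and every Met+FK library was below every Met library. The catalytic subunits stood closer to 0 than POLA2, at -0.58 for POLA1, -0.83 for POLD1 and -0.68 for POLE. The primase genes stood at -0.57 for PRIM1 and -0.68 for PRIM2, and POLD2 stood at -0.63. POLD3, an accessory subunit of polymerase delta (ENSG00000077514, chr11:74493850-74669117, plus strand), fell least, with 1614, 1640.5 and 1661 normalized counts in the DMSO libraries, 1198, 1179 and 1286 in the Met libraries, 1707, 1822 and 1737 in the FK libraries and 1183, 1168 and 1149 in the Met+FK libraries. Its change was -0.42 ± 0.07 (SE), adjusted p = 0.000175, with no overlap between DMSO and Met.

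The clamp, clamp loader and lagging strand group had 8 of 9 genes lower with metformin, 6 of them over 1.5-fold, and a median of -1.05. LIG1, the ligase that joins Okazaki fragments (ENSG00000105486, chr19:48115444-48170603, minus strand), had 2586, 2236 and 2438 normalized counts in the DMSO libraries, 928, 866 and 1115 in the Met libraries, 2373, 1964 and 2094 in the FK libraries and 991, 898 and 1097 in the Met+FK libraries. It changed by -1.32 ± 0.11 (SE), adjusted p = 2.89e-07. FEN1, the nuclease that trims the ends of these fragments (ENSG00000168496, chr11:61792910-61797238, plus strand), had 6315, 5408 and 5799 normalized counts in the DMSO libraries, 2444, 2369.8 and 2422 in the Met libraries, 5206, 4629 and 5073 in the FK libraries and 1915, 1721 and 1916 in the Met+FK libraries. It changed by -1.27 ± 0.08 (SE), adjusted p = 2.04e-08, and its Met+FK libraries were all below its Met libraries. PCNA, the clamp itself, changed by -1.25 ± 0.08 (SE), adjusted p = 1.68e-08. The 5 clamp loader genes were unequal, with -1.11 for RFC5, -1.05 for RFC2, -0.75 for RFC3, -0.30 for RFC4 and 0.15 for RFC1. RFC1, the large subunit of the loader (ENSG00000035928, chr4:39287455-39366375, minus strand), had 2277, 2926 and 2159.6 normalized counts in the DMSO libraries, 2824, 2909 and 2402 in the Met libraries, 2783, 4135 and 3011 in the FK libraries and 2683, 2733 and 2618 in the Met+FK libraries. Its DMSO and Met libraries overlapped, and the change of 0.15 ± 0.14 (SE), adjusted p = 0.371 did not pass. Loss of RFC4's call with the libraries scaled to the same total was the only loss among the 46 genes in any alternative fit. DNA2, a nuclease and helicase of the lagging strand, stood at -0.50.

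The 3 genes of RPA, the complex that coats single-stranded DNA, moved within a narrow range. RPA2 (ENSG00000117748, chr1:27891523-27914746, minus strand) had 4445, 4553 and 4424 normalized counts in the DMSO libraries, 2426, 2382 and 2558 in the Met libraries, 4123, 3314 and 3733 in the FK libraries and 2322, 2327 and 2675 in the Met+FK libraries, a change with metformin of -0.87 ± 0.09 (SE), adjusted p = 1.57e-06. RPA1 (ENSG00000132383, chr17:1829701-1900082, plus strand) had 10601, 10494 and 9973 normalized counts in the DMSO libraries, 6011, 6490.4 and 6582 in the Met libraries, 10150.0, 9179.5 and 9695 in the FK libraries and 5821, 6143 and 6560.0 in the Met+FK libraries, and changed by -0.70 ± 0.07 (SE), adjusted p = 1.58e-06. RPA3 (ENSG00000106399, chr7:7636517-7718607, minus strand) had 1947, 1784 and 1807 normalized counts in the DMSO libraries, 1159, 1153 and 1121 in the Met libraries, 1882, 1749.9 and 1679 in the FK libraries and 997, 1138 and 1044 in the Met+FK libraries, and changed by -0.69 ± 0.08 (SE), adjusted p = 6.71e-06. In all 3 the Met and Met+FK libraries overlapped, and both lay below every library without metformin. Of the fork protection genes, TIMELESS, whose product travels with the fork (ENSG00000111602, chr12:56416362-56449426, minus strand), had 6100.3, 5421 and 5969 normalized counts in the DMSO libraries, 3751, 3595 and 4379 in the Met libraries, 5806, 5119 and 5752 in the FK libraries and 4144, 4099 and 4304 in the Met+FK libraries. With metformin it changed by -0.58 ± 0.08 (SE), adjusted p = 5.56e-05, and its levels with the drug were below all levels without it. CLSPN encodes claspin, which passes the stalled fork signal to the checkpoint kinase CHK1 (ENSG00000092853, chr1:35720217-35769978, minus strand). Its libraries held 3444, 3868 and 3398 normalized counts in the DMSO libraries, 2107, 2116 and 1820.1 in the Met libraries, 4041, 5738 and 4378 in the FK libraries and 1584, 1750.3 and 1643 in the Met+FK libraries. With metformin it changed by -0.83 ± 0.11 (SE), adjusted p = 3.31e-05, while every FK library was above every DMSO library.

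The largest changes with metformin were in deoxynucleotide supply, where all 4 genes fell over 1.5-fold with a median of -1.52. RRM2, the regulated small subunit of ribonucleotide reductase (ENSG00000171848, chr2:10120697-10211725, plus strand), had 30529, 30929 and 31080.0 normalized counts in the DMSO libraries, 9280.1, 9659 and 9264 in the Met libraries, 30752, 28664 and 29832 in the FK libraries and 7679, 7462 and 7722 in the Met+FK libraries. Its change with metformin was -1.71 ± 0.06 (SE), adjusted p = 4.22e-11, a decrease of 69.5%, and the 3 libraries of each treatment were close to each other. TK1, the thymidine kinase of the S phase salvage pathway (ENSG00000167900, chr17:78174090-78187233, minus strand), had 6059.9, 5676 and 5579.5 normalized counts in the DMSO libraries, 1836, 1807 and 2172 in the Met libraries, 5494, 4062 and 4807 in the FK libraries and 1788, 1671 and 2074 in the Met+FK libraries. It changed by -1.58 ± 0.11 (SE), adjusted p = 7.70e-08. TYMS, the thymidylate synthase, changed by -1.45 ± 0.07 (SE), adjusted p = 2.78e-09. RRM1, the large subunit of ribonucleotide reductase (ENSG00000167325, chr11:4094706-4138932, plus strand), had 7291, 7915 and 7485 normalized counts in the DMSO libraries, 4718, 4982 and 4403 in the Met libraries, 8928, 9607 and 8679 in the FK libraries and 4461, 4801 and 4653 in the Met+FK libraries. It changed by -0.69 ± 0.07 (SE), adjusted p = 2.29e-06, and its Met and Met+FK libraries overlapped.

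All 3 chromatin genes fell with metformin, with a median of -1.02. UHRF1, which recognizes hemimethylated DNA behind the fork (ENSG00000276043, chr19:4903079-4962154, plus strand), had 9467, 7851 and 9369.7 normalized counts in the DMSO libraries, 3193, 3332 and 3149 in the Met libraries, 7962, 7321 and 7513 in the FK libraries and 2647, 2426 and 2569 in the Met+FK libraries. Its change was -1.46 ± 0.08 (SE), adjusted p = 7.11e-09. CHAF1A, the large subunit of the chromatin assembly factor CAF-1 (ENSG00000167670, chr19:4402639-4445018, plus strand), had 4135, 3425 and 4149 normalized counts in the DMSO libraries, 1995, 1789 and 1962 in the Met libraries, 3164, 2796 and 3281 in the FK libraries and 1781, 1603 and 1750.3 in the Met+FK libraries, a change of -1.02 ± 0.09 (SE), adjusted p = 6.74e-07. CHAF1B, its middle subunit (ENSG00000159259, chr21:36385391-36419015, plus strand), had 4132, 3986 and 4165 normalized counts in the DMSO libraries, 1914, 1972 and 2172 in the Met libraries, 3623, 2949.5 and 3451 in the FK libraries and 1812, 1741 and 1946 in the Met+FK libraries, a change of -1.02 ± 0.09 (SE), adjusted p = 3.31e-07. The Met+FK libraries lay below the Met libraries for UHRF1 and CHAF1A and overlapped with them for CHAF1B. Another listed gene with a mean of at least 10% of the member's own overlaps 10 of the 49 genes, namely GINS2, PRIM1, RFC4, RFC5, FEN1, RPA1, RPA3, TYMS, CHAF1A and CHAF1B. The strand setting of the counting is not given in the sources used here, so the values of these 10 are uncertain.

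FK866 alone left the replication genes much closer to the vehicle. Of the 49, 12 were lower than in DMSO at an adjusted p under 0.05, against 9.84% of all tested genes, and 3 were higher, against 11.3%. With 1.5-fold as a further condition none was called with limma, edgeR or DESeq2 (24 of the 49 had an unadjusted p under 0.05, as had 42.2% of all tested genes), against 0.754% of all tested genes called lower and 2.73% called higher. The median log2 fold change was -0.12, with 35 of 49 negative, and the median of all tested genes was -0.02. The FK libraries were all below the DMSO libraries in 18 genes, against 21.6% of all tested genes, and all above them in 4, against 17.2%. The 12 lower genes were MCM5 (-0.45), GINS2 (-0.42), CDT1 (-0.41), MCM2 (-0.37), POLD2 (-0.36), MCM7 (-0.35), CHAF1A (-0.34), MCM3 (-0.30), CHAF1B (-0.30), RPA2 (-0.27), RFC2 (-0.26) and FEN1 (-0.23). The 3 higher genes were RFC1 (0.42 ± 0.14 (SE), adjusted p = 0.0432), CLSPN (0.39 ± 0.11 (SE), adjusted p = 0.0328) and RRM1 (0.26 ± 0.07 (SE), adjusted p = 0.0277). RRM2, the gene with the largest decrease under metformin, stood at -0.05 ± 0.06 (SE), adjusted p = 0.49, with overlapping libraries.

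These calls rest on few libraries. Without DMSO replicate 1, DMSO replicate 3 or FK replicate 2, none of the 49 genes passed in either direction. Few of all tested genes did so either, with 0.169%, 0.774% and 0.397% lower and 0.696%, 1.70% and 1.14% higher, in this order. Without FK replicate 3, 6 passed as lower, against 5.19% of all tested genes, and 2 as higher, against 8.66%. Without DMSO replicate 2 the counts were 13, against 10.3%, and 6, against 16.6%. Without FK replicate 1 they were 20, against 15.2%, and 3, against 16.9%. Same-numbered DMSO and FK libraries deviated together. The replicate block is an effect of replicate number shared by all treatments, not a pairing of DMSO with FK alone. In a fit with this block 21 genes passed as lower, against 21.3% of all tested genes, and 6 as higher, against 23.3%.

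The change with FK866 went with base composition. GC content of the canonical transcript ranged from 37.9% to 64.8% in the 49 genes, with a median of 47.1%, against 48.5% in all tested genes. All 18 genes over 50% GC had a negative log2 fold change, against 17 of the 31 others. The 12 lower genes had between 46.65% and 64.3% GC, and the 3 higher genes between 41.6% and 44.0%. Across the 49 genes, which share their libraries and are not independent replicates, the log2 fold change of FK against DMSO had a Pearson r of -0.76 with GC content, and across all tested genes it was -0.60. The slope of a library's log2 values on GC content, per 10 percentage points, was -0.04, -0.20 and -0.06 in the DMSO libraries and -0.24, -0.48 and -0.26 in the FK libraries. FK replicate 2 had the steepest slope of the 12 libraries. After removal, library by library, of the trend on GC content and length, 6 genes passed as lower, against 3.29% of all tested genes, and none as higher. These were GINS1 (-0.35), CHAF1B (-0.27), RRM2 (-0.26), MCM5 (-0.26), PRIM2 (-0.25) and MCM3 (-0.17), of which GINS1, RRM2 and PRIM2 are not among the 12 above. With the block as well, 13 passed as lower, against 7.05%, and none as higher. The slope was -0.32, -0.38 and -0.16 in the Met libraries, and 48 of the 49 genes passed as lower in Met against DMSO after the same removal, against 29.3% of all tested genes, with a median of -0.97. ORC2 and WDHD1 were among the 48. Before the removal, the Pearson r with GC content in this comparison was -0.47 over the 49 genes and -0.29 over all tested genes. Whether GC content stands for the libraries or for the genes was not tested.

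**Figure D3:**
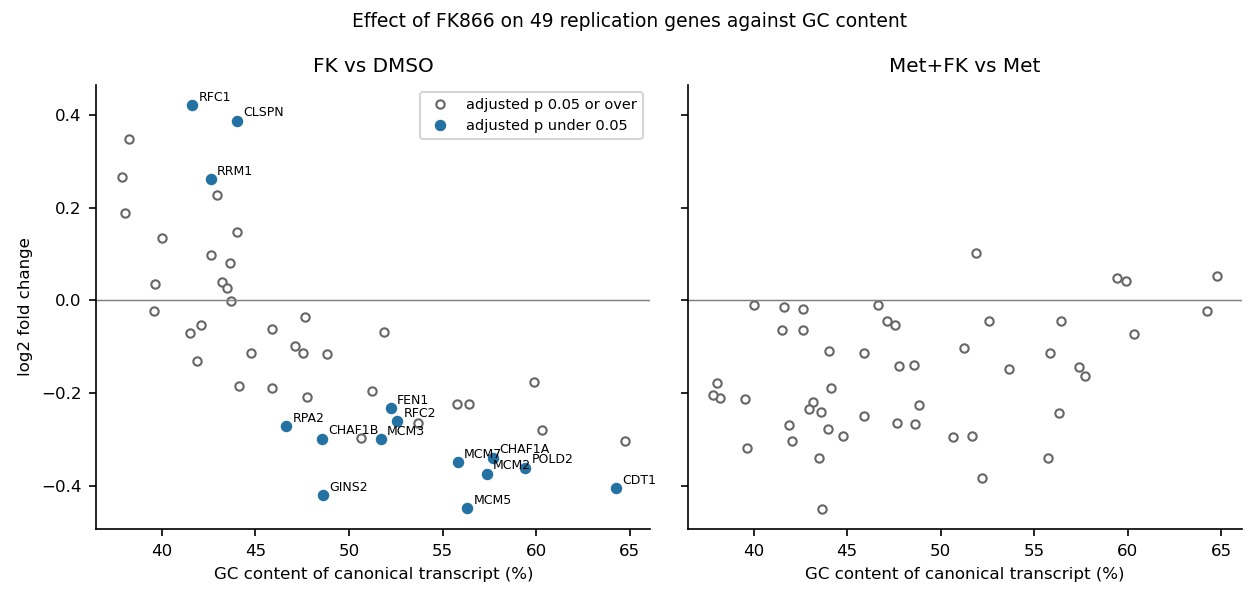
Log2 fold change (vertical axes) of the 49 replication genes against the GC content of their canonical transcript (horizontal axes, %), for FK against DMSO (left) and Met+FK against Met (right), with genes at an adjusted p under 0.05 filled and named. On the left the values run from positive at the lowest GC contents to negative in all 18 genes over 50% GC (Pearson r -0.76), and on the right no gene is filled and r is 0.34.

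With both drugs, the replication genes were again low. Met+FK against DMSO gave 46 of 49 lower at an adjusted p under 0.05, against 26.1% of all tested genes, and 42 of these over 1.5-fold, against 11.3%. The median log2 fold change was -1.15, a decrease of 54.9%, and 27 genes were at least 2-fold lower, against 3.99% of all tested genes. The lowest values were those of RRM2 (-2.02), UHRF1 (-1.80), GINS2 (-1.72), TYMS (-1.68) and FEN1 (-1.66). ORC2 (-0.15), WDHD1 (-0.45) and RFC1 (0.14) did not pass, though WDHD1 had an adjusted p of 0.0502. This comparison shares its DMSO libraries with Met against DMSO.

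The effect of metformin in the presence of FK866 was measured in the 6 other libraries, Met+FK against FK. Here too 46 of 49 genes were lower, against 21.7% of all tested genes, and 41 of them over 1.5-fold, against 9.29%. All 49 log2 fold changes were negative, with a median of -1.04, and in 48 genes the Met+FK libraries lay below every FK library, against 26.0% of all tested genes. POLD2 (-0.22), RFC1 (-0.28) and ORC2 (-0.29) did not pass. WDHD1, which did not pass without FK866, stood at -0.80 ± 0.18 (SE), adjusted p = 0.00261. Met against DMSO and Met+FK against FK share no library, but same-numbered DMSO and FK libraries deviated together, as did Met and Met+FK libraries. These comparisons are therefore not independent. Over the 49 genes their log2 fold changes had a Pearson r of 0.77 and a Spearman rho of 0.78. The same r over all tested genes was not computed. RRM2 was lowest in both, at -1.71 and -1.96.

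**Figure D4:**
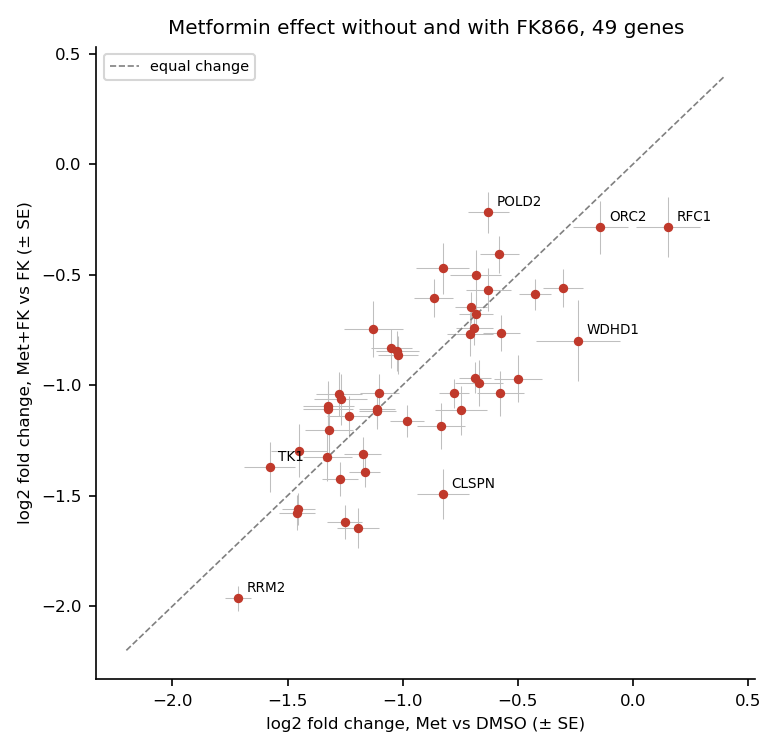
Log2 fold change of the 49 replication genes with metformin, without FK866 (Met against DMSO, horizontal axis) and with FK866 (Met+FK against FK, vertical axis), with the SE of each as bars and a dashed line where both are equal. All points but RFC1 have negative values on both axes (Pearson r 0.77), RRM2 is lowest on both, and CLSPN lies farthest below the line.

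The difference between these effects is the interaction, that is, Met+FK against Met minus FK against DMSO. No replication gene passed this test with limma or edgeR, 4 passed with DESeq2, and 18 had an unadjusted p under 0.05, while over all tested genes 0.0585% passed with limma and 4.52% with DESeq2, and 30.5% had an unadjusted p under 0.05. The interaction ranged from -0.67 in CLSPN to 0.41 in POLD2. For CLSPN it was -0.67 ± 0.16 (SE), adjusted p = 0.106, and for POLD2 0.41 ± 0.13 (SE), adjusted p = 0.11. Like the FK866 effect itself, it went with GC content, with a Pearson r of 0.81 over the 49 genes and 0.62 over all tested genes. With the replicate block 18 genes passed, against 32.0% of all tested genes, and 15 of them had a negative value, against 16.5%. Both named genes were among the 18, CLSPN with an adjusted p of 0.00383 and POLD2 with 0.0137. With DESeq2 CLSPN passed (adjusted p = 0.0119) and POLD2 did not (0.0603). With the trend on GC content and length removed 1 of the 49 passed, against 0.281% of all tested genes, and the values were -0.46 in CLSPN and 0.09 in POLD2 (adjusted p = 0.108 and 0.616).

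FK866 added to metformin was measured as Met+FK against Met. None of the 49 genes passed with limma or edgeR, 5 passed as lower with DESeq2, and 20 had an unadjusted p under 0.05. Over all tested genes, 0.00650% passed as lower and 0.0911% as higher with limma, 0.143% passed as lower with DESeq2, and 6.84% had an unadjusted p under 0.05. Still, 45 of the 49 values were negative, with a median of -0.16, against a median of 0.01 and 48.1% negative over all tested genes. In 22 genes the Met+FK libraries were all below the Met libraries, against 5.56% of all tested genes, and in none were they all above. The lowest values were those of MCM10 (-0.45 ± 0.09 (SE), adjusted p = 0.0837), FEN1 (-0.38 ± 0.08 (SE), adjusted p = 0.086), UHRF1 (-0.34 ± 0.08 (SE), adjusted p = 0.174) and PCNA (-0.34 ± 0.08 (SE), adjusted p = 0.133). RRM2 stood at -0.30 ± 0.06 (SE), adjusted p = 0.0576.

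Same-numbered Met and Met+FK libraries also deviated together. The replicate block does not pair these alone, since its effect is shared by all treatments. Same-numbered libraries of Met or Met+FK with DMSO, and of Met+FK with FK, did not all correlate above 0.1. A shared effect is therefore not shown for every pair of treatments. In the fit with the block 8 genes passed as lower, against 0.312% of all tested genes, and none as higher. These were MCM10, FEN1, UHRF1, PCNA, RRM2, CDC6, MCM3 and MCM4, with values from -0.45 to -0.26, which spread over licensing, helicase activation, the clamp, lagging strand processing, deoxynucleotide supply and chromatin. With the trend on GC content and length removed, 7 genes passed as lower, against 0.333% of all tested genes, and 11 with the block as well, against 0.842%. In this comparison the log2 fold change had a Pearson r of 0.34 with GC content over the 49 genes, opposite in sign to that of FK against DMSO. FK against DMSO and Met+FK against Met share no library, and over the 49 genes their log2 fold changes had a Pearson r of -0.08 and a Spearman rho of -0.09. CLSPN stood at 0.39 in the former and -0.28 in the latter, and MCM10 at -0.0006 and -0.45.

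Ratios within a library do not depend on its size factor, apart from the pseudocount of 1, and 3 of them were compared between the 6 libraries with metformin and the 6 without, by an exact two-sided permutation test within FK866 status (400 arrangements, smallest p 0.005, adjusted over the 3 ratios). Both partners were chosen by their roles, with earlier results of these data known. The log2 ratio of RRM2 to RRM1, small to large subunit of ribonucleotide reductase, was 2.07, 1.97 and 2.05 in the DMSO libraries, 0.98, 0.95 and 1.07 in Met, 1.78, 1.58 and 1.78 in FK and 0.78, 0.64 and 0.73 in Met+FK. It was lower by 1.01 with metformin (exact permutation p = 0.005, adjusted p = 0.0075), with no overlap between libraries with and without the drug, so RRM2 fell more than RRM1. RRM2B, no member of the list, encodes the p53-inducible small subunit that can replace RRM2, though the study reports p53 protein as undetectable in KP4 cells. It had 481, 715 and 384 normalized counts in the DMSO libraries, 812, 903 and 679 in Met, 633, 1079 and 683 in FK and 637, 766 and 739.5 in Met+FK. Its change in Met against DMSO was 0.64 ± 0.21 (SE), adjusted p = 0.0207, though 1 Met library was below the highest DMSO library. In Met+FK against DMSO it was 0.48 ± 0.21 (SE), adjusted p = 0.0684, and in Met+FK against FK -0.12 ± 0.21 (SE), adjusted p = 0.672, so neither passed. The log2 ratio of RRM2B to RRM2 was -5.92 ± 0.46 (SD, n = 3) in DMSO, -3.57 ± 0.18 in Met, -5.26 ± 0.46 in FK and -3.42 ± 0.16 in Met+FK. It was higher by 2.10 with metformin (exact permutation p = 0.005, adjusted p = 0.0075), and all 6 libraries with metformin were above all 6 without. RRM2 alone changed by -1.71 without FK866 and by -1.96 with it, also with no overlap, so this p-value does not test RRM2B by itself.

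The log2 ratio of CDT1 to GMNN, the loading factor and its inhibitor, was 0.77, 0.60 and 0.87 in the DMSO libraries, 0.15, 0.06 and 0.65 in Met, 0.45, -0.18 and 0.51 in FK and 0.54, 0.31 and 0.66 in Met+FK. With metformin it was lower by 0.11 (exact permutation p = 0.61, adjusted p = 0.61), a difference smaller than the spread between libraries. This pools opposite directions, since the mean was 0.74 in DMSO and 0.29 in Met (lower), but 0.26 in FK and 0.50 in Met+FK (higher). The difference between these directions was not tested. CDT1 has 64.3% GC and GMNN 43.6%, and the lowest ratio was in FK replicate 2, the library with the steepest GC slope. With metformin alone, 2 of 3 libraries were below all DMSO libraries.

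**Figure D5:**
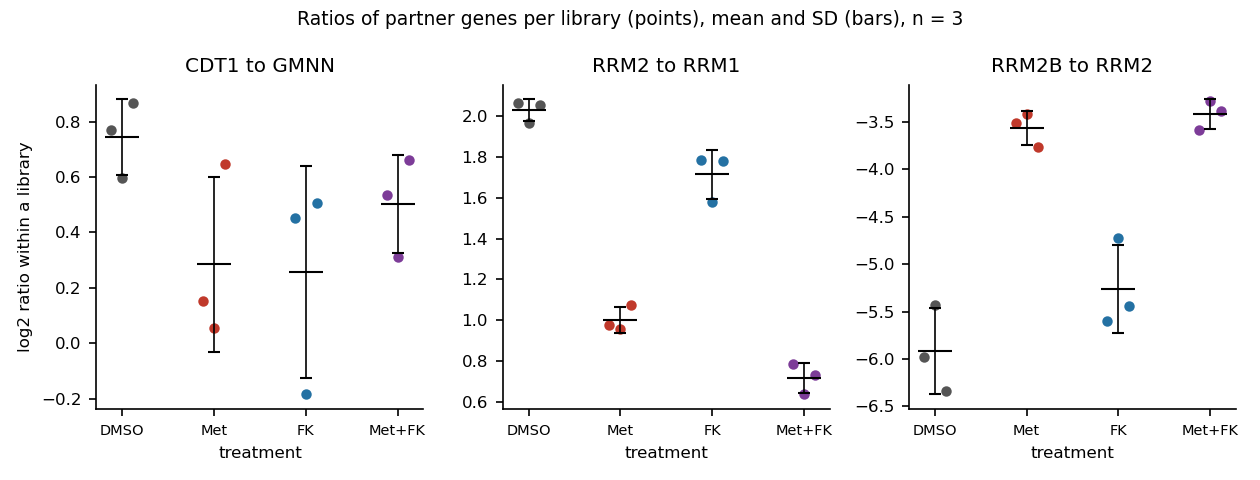
Log2 ratio within each library (vertical axes) of CDT1 to GMNN, RRM2 to RRM1 and RRM2B to RRM2, by treatment, with points for libraries and bars for the mean and SD of 3. The RRM2 to RRM1 and RRM2B to RRM2 ratios are apart between libraries with and without metformin, by -1.01 and 2.10 on the log2 scale, and those of CDT1 to GMNN overlap.

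Lists of genes that work beside the 49 were counted in the same fit. Of all tested genes, 25.9% were lower with metformin and 24.9% higher. Of 34 other replication genes, 19 were lower with metformin and 2 higher, with a median log2 fold change of -0.35. The largest changes were in ASF1B (-1.44), RECQL4 (-1.15), TICRR (-1.11) and PCLAF (-0.97), which act in histone deposition, origin firing and at the clamp. The 2 higher genes were MCM9 (0.56), a helicase related to MCM2-7, and TOP1 (0.46), a topoisomerase. Of 11 other genes of deoxynucleotide metabolism, 7 were lower and 2 higher, with a median of -0.52. DCTPP1 (-1.03), SLC29A1 (-1.01), DTYMK (-0.88) and NUDT1 (-0.83) were lowest, and the higher genes were RRM2B and TK2 (0.38), the mitochondrial thymidine kinase. In FK against DMSO, 2 of the 34 and 2 of the 11 were lower, against 9.84% of all tested genes, and 3 and 1 were higher, against 11.3%. With the replicate block 8 and 4 were lower, against 21.3%, and 15 and 3 higher, against 23.3%. In Met+FK against Met, none of either list passed.

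Of 17 genes of E2F and RB control, 10 were lower with metformin and 1 was higher, with a median of -0.42. The activators E2F1 and E2F2 stood at -1.20 ± 0.11 (SE), adjusted p = 1.01e-06, and -1.45 ± 0.16 (SE), adjusted p = 4.17e-06. E2F3, also an activator, stood at -0.08 ± 0.09 (SE), adjusted p = 0.483, and did not pass. MYBL2, an E2F target that drives later cell cycle genes, stood at -1.33, the repressor E2F8 at -1.11 and CDK2, the kinase of S phase entry, at -1.02. RBL2, the pocket protein of resting cells, was the higher gene (0.35). In FK against DMSO, 1 of the 17 was lower, E2F4 (-0.29), and 4 were higher, namely RB1 (0.53), E2F7 (0.47) and the CDK inhibitors CDKN1B (0.43) and CDKN1A (0.33). Of all tested genes, 9.84% were lower and 11.3% higher in this comparison. With the replicate block, 6 of the 17 were lower, against 21.3% of all tested genes, and 6 higher, against 23.3%. Of 24 mitosis genes, measured for comparison, 19 were lower with metformin and none higher, with a median of -0.79, led by KIF20A (-1.57), AURKB (-1.44), PLK1 (-1.28) and BIRC5 (-1.26). In Met+FK against Met, 10 of the 24 mitosis genes were negative with a median of 0.01, beside 45 of the 49 replication genes with a median of -0.16, and no gene of the 17 or the 24 passed, though with the replicate block CCND1 of the 17 did. The difference between these lists was not tested.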

How the data were processed

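RNA of KP4 cells under 4 treatments was depleted of ribosomal RNA and sequenced as read pairs in 12 libraries. After trimming with cutadapt, the authors mapped the reads to hg38 by STAR, and featureCounts and DESeq2 gave gene counts and size factors. The deposited signal values are these counts over the size factor of their library, and 100% of the values came out as whole read pairs within 0.01. The annotation used for counting is not given in the sources used here. Pairs of libraries of 1 treatment were not copies, with a chi-square of 5.75 to 51.9 per degree of freedom.

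Comparisons were fitted with limma-trend (limma 3.58.1, R 4.3.3) on log2(normalized count + 1) for the 15376 genes whose mean was 10 or more, in a single fit of the 12 libraries with 1 mean per treatment. Benjamini-Hochberg adjustment covered all genes of a comparison, each comparison by itself. Values per library are given for the 2 lowest and the highest member of each role group by log2 fold change of Met against DMSO, and for the genes of the ratios. Genes of other lists were named by size of change. E2F3 and the lists' higher genes were named after their values were seen, as were members named for a lost call. The members and all lists were chosen with earlier results of these data known. The fit was tested on simulated counts. These were drawn with no replicate effect and no trend on GC content, so they do not show how the fit handles either.

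Same-numbered libraries were read as paired where their deviations from the group means correlated above 0.1 in all 3 pairs, from the values alone. This held for DMSO with FK (0.25, 0.42 and 0.22) and for Met with Met+FK (0.17, 0.20 and 0.23). Differently numbered libraries were not compared in this way. The replicate block was a common effect of replicate number over all treatments, not a separate effect for each of these pairs. Replicate 2 had the steepest GC slope in each of the 4 treatments, at -0.20 in DMSO, -0.38 in Met, -0.48 in FK and -0.29 in Met+FK. The part of GC content in these correlations was not tested. Alternatives were pseudocounts of 0.1 and 10, other filters and scalings, edgeR 4.0.16 and DESeq2 1.42.0 on the recovered read pairs, the 6 libraries compared alone, the replicate block, each library left out, and removal of a loess trend (span 0.3) on GC content and length of the Ensembl canonical transcript. Gene positions are those of the deposited table, and promoter windows are those of RefSeq.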

Additional observations from a re-analysis of the deposited data

Results flagged for a closer look

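CLSPN was singled out because every FK library was above every DMSO library (log2 fold change 0.39), while every Met+FK library was below every Met library (-0.28). The difference between these effects, tested as the interaction, was -0.67 ± 0.16 (SE) with limma, with an adjusted p of 0.106, so it did not pass. It passed with the replicate block (same value, adjusted p = 0.00383), with DESeq2 (-0.69, 0.0119), with block and GC and length trend removal together (-0.46, 0.0245) and without FK replicate 1 (-0.77, 0.0391). With the block alone, 32.0% of all tested genes passed the interaction, and with DESeq2 4.52%. CLSPN did not pass with edgeR (-0.71, 0.103), with trend removal alone (-0.46, 0.108) or in any further fit. Its call in FK against DMSO was also lost with the trend removed. The FK libraries held 4041, 5738 and 4378 normalized counts and the DMSO libraries 3444, 3868 and 3398, and without FK replicate 2 the log2 fold change was 0.24 and did not pass. No treatment has 4 or more libraries, so single libraries were not tested against their group.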

How the results depend on the processing

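The median of the 49 genes moved from -0.98 to -0.86 in Met against DMSO and from -1.15 to -1.07 in Met+FK against DMSO when the libraries were scaled to the same total, a scaling that shifted the median of all genes in the former from 0.01 to 0.13. In FK against DMSO, lower and higher genes numbered 6 and 1 over all genes with any value above 0, 0 and 0 with the 6 libraries alone, 21 and 6 with the replicate block, 6 and 0 with the GC and length trend removed, and 13 and 0 with block and removal together. The shares of all tested genes were, in this order, 2.73% and 3.66%, 0.267% and 0.722%, 21.3% and 23.3%, 3.29% and 4.18%, and 7.05% and 8.09%. Without 1 library each, lower genes ranged from 0 to 20, higher genes from 0 to 6 and the median from -0.18 to -0.068. In Met+FK against Met, the lower genes numbered 2 at the same total, 8 with the replicate block, 5 with DESeq2, 7 with the trend removed and 11 with the block as well. Of all tested genes, 0.0520%, 0.312%, 0.143%, 0.333% and 0.842% were lower in these settings, in this order. The interaction was passed by 18 genes with the block, 4 with DESeq2, 1 with the trend removed, 3 with the block as well, and 0 to 4 without 1 library each, the 4 without FK replicate 1, where 5.63% of all tested genes passed with a negative and 6.37% with a positive value. The shares of all tested genes for the first 4 settings were 32.0%, 4.52%, 0.281% and 2.83%. ORC2 turned to -0.17 (adjusted p 0.0447) in FK against DMSO with trend removal and block. The causes were not tested. The block moved no other count of calls over the 49 genes in the 5 comparisons by over 1.5 times. Over all tested genes it raised the calls of FK against DMSO from 1513 to 3268 lower and from 1738 to 3586 higher. In the other gene lists it also moved the E2F and RB list in FK against DMSO from 1 to 6 of 17 lower, against 21.3% of all tested genes. The mitosis list moved from 1 to 8 of 24 higher, against 23.3% (the lists of 34 and 11 genes are given above). With the block, Met against DMSO had 5 in place of 2 higher genes in the list of 34 and 3 in place of 1 in the E2F and RB list, and Met+FK against Met had 1 lower gene in place of 0 in the E2F and RB list. For Met against DMSO (0.01, 0.33 and 0.25), Met+FK against DMSO (0.05, 0.16 and 0.02) and Met+FK against FK (0.05, 0.24 and 0.14) the pairs did not all correlate above 0.1. The block still assumes the same replicate effect in all treatments, so its calls depend on that assumption. With the block, 46, 47 and 49 genes were lower in these 3 comparisons, against 4607, 4596 and 4201 of all 15376 tested genes. The 3 ratios kept their direction and their side of the threshold under both pseudocounts, paired sign flips (exact p = 0.0312 for both ratios with RRM2, the smallest they can give) and each library left out. No depth limit was met, since the lowest member, POLE2, had a mean of 570.2 normalized counts.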

Other observations

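Levels between genes can be compared per length only. In DMSO, the highest of the 49 genes by normalized counts per kb of canonical transcript were MCM7 (9548 ± 734, SD, n = 3), RRM2 (9468 ± 87.3), POLD2 (8614 ± 357), TYMS (5379 ± 147) and PCNA (4132 ± 88.4), of which MCM7 and RRM2 differed by less than their spread. The lowest were WDHD1 (221.5 per kb), DNA2 (399), CLSPN (419) and POLA1 (432). In the Met libraries POLD2 was highest, with 5578 ± 301 per kb, followed by MCM7 (3945 ± 333), RRM2 (2885 ± 68.6) and TYMS (1965 ± 50.4).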
